A study of Rattus norvegicus with 18 samples.

Results

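Livers of rats that were bled and then transfused with stored red blood cells (S-RBC) were compared with livers of rats that had partial hepatectomy (PHx) alone, across all genes of the array. The comparison takes the 3 arrays of S-RBC rats and the 3 arrays of PHx rats by the group named in their titles, 6 of the 18 arrays of the series, with 1 rat per array. All rats were adult male Sprague-Dawley rats, and whole liver tissue was taken on day 1 after surgery. S-RBC rats lost 3 ml of blood at 1 ml/min, underwent 50% PHx and received red cells of other rats that had been stored for 7 days in blood bags with a citrate-based preservative. PHx rats had the same 50% PHx with neither bleeding nor transfusion, so that blood loss, fluid given and the age of the red cells cannot be told apart within this comparison. The other groups, of 3 rats each, had the same bleeding and PHx followed by fresh red cells (F-RBC), by 10% HAES, a starch plasma expander, or by no fluid (bleeding), and a naive group had no surgery. They enter the same model and are set beside S-RBC where a result calls for it. The sources used here do not say whether donors of red cells were pooled or whether PHx rats were cannulated.

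After partial hepatectomy, hepatocytes leave their resting state, pass through the G1 phase and replicate their DNA, while macrophages and other non-parenchymal cells of the liver supply cytokines, growth factors and new matrix. Macrophages of the liver also take up aged red cells and break down their heme through heme oxygenase. The question behind the comparison is what a stored red cell transfusion after blood loss adds to a liver that is already regenerating.

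The labelled tissue was matched by its markers. Albumin (Alb) stood at 12.81, 12.99 and 12.76 in S-RBC livers and at 12.87, 12.79 and 12.81 in PHx livers, near the top of the scale used throughout, log2(intensity + 16). Transthyretin (Ttr) lay between 11.85 and 12.06 in S-RBC livers and between 11.97 and 12.03 in PHx livers. The median probe set of these 6 arrays stood between 5.07 and 5.18 on this scale, so a gene near or below 5 is dim, and the offset of 16 shrinks its differences. S-RBC replicate 1 stood apart: over all probe sets its highest correlation with any other array was 0.938, whereas each of the other 17 arrays had a nearest array at 0.968 to 0.978.

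Of 36685 probe sets, 276 (0.752%) passed the threshold, a Benjamini-Hochberg adjusted p under 0.05 in limma, with 191 higher and 85 lower in S-RBC livers. After quantile normalization the split was 239 higher and 162 lower, and after centring each array on its median 216 and 161. Most of the rises had no gene name: 184 of the 276 carry no gene symbol, 152 of them higher, while 87 carry 1 symbol, 36 higher and 51 lower. Taken as genes, with the brightest probe set for each of 18166, 35 (0.193%) rose and 50 (0.275%) fell. All 276 had S-RBC arrays that did not overlap the PHx arrays, as did 16.7% of all probe sets. The median difference over all genes was 0.0039 on the log2 scale and 50.8% of genes lay above 0. The p-values measure the spread between rats of the same group, pooled over all 18 arrays, and not that of the S-RBC and PHx rats alone. A gene with a wide spread in PHx livers is therefore judged by a spread shared with the other groups. With 3 rats a group the number of arrays limits the precision.

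**Figure D1:**
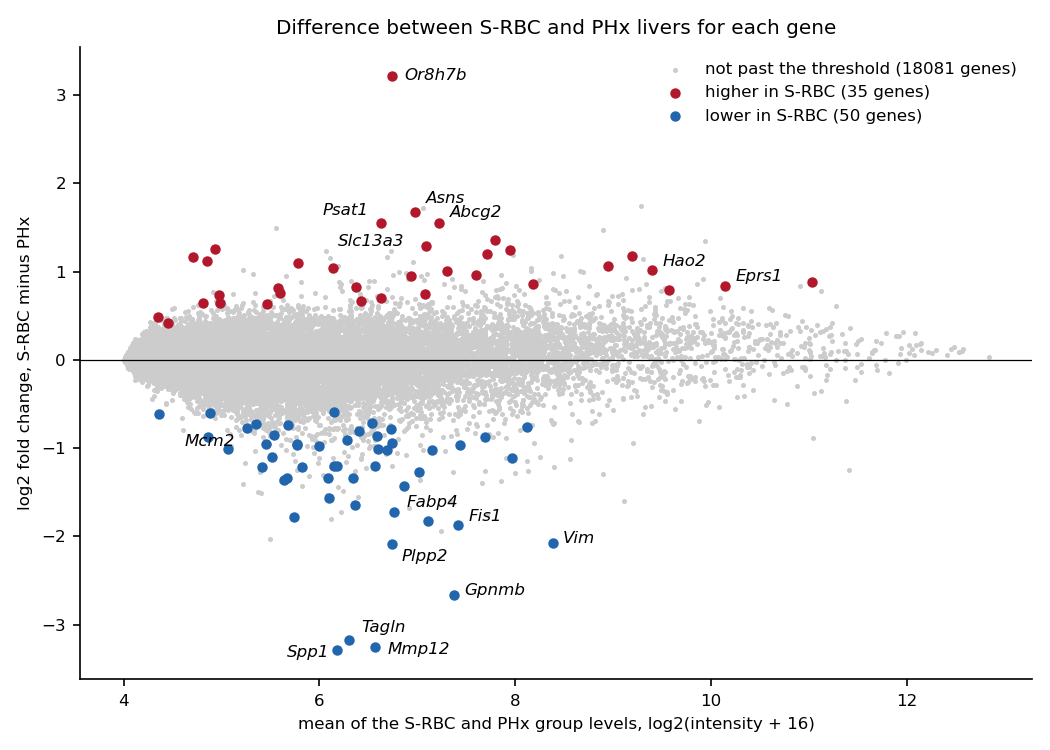
Each point is 1 of 18166 genes, with the mean of the S-RBC and PHx group levels on the x axis and the log2 fold change, S-RBC minus PHx, on the y axis; red points (35 genes) are higher and blue points (50 genes) lower in S-RBC past an adjusted p of 0.05. The falls reach −3.29 (Spp1), further from 0 than the named rises, of which Asns at 1.68 is the highest apart from an olfactory receptor (Or8h7b).

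Spp1 and Mmp12, both known from macrophages that gather in injured tissue, had the largest falls of the named genes. Spp1, which encodes the secreted phosphoprotein osteopontin, stood at 4.29, 4.65 and 4.66 in S-RBC livers, against 8.47, 5.80 and 9.20 in PHx livers. The PHx livers spread over more than 3 log2 units, with PHx replicate 2 the lowest. The groups did not overlap, which was part of the rule for naming the largest changes. The log2 fold change was −3.29 (SE 0.650, adjusted p = 0.030 by limma). The S-RBC levels were dim. Over the other settings tried the fold change ran from −4.68 to −2.07, and the call held in 7 of 17. The settings that lost the call include an offset of 64 and only the 6 S-RBC and PHx arrays. So did leaving out any 1 of these arrays except PHx replicate 2. The S-RBC livers overlapped the naive livers, which had 4.90, 5.13 and 4.44.

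Mmp12, the metalloelastase of macrophages, had 4.87, 4.37 and 5.58 in S-RBC livers, against 7.95, 7.23 and 9.42 in PHx livers, a fold change of −3.26 (SE 0.50, adjusted p = 0.0078). Gpnmb, a lysosomal and membrane glycoprotein of lipid-laden macrophages, had 5.89, 6.61 and 5.64 in S-RBC livers, against 9.32, 7.46 and 9.35 in PHx livers (−2.66, SE 0.551, adjusted p = 0.035). In both genes every S-RBC liver was below every PHx liver, as the naming rule required. Fabp4, a fatty acid carrier of adipocytes and macrophages, had 5.78, 6.23 and 5.71 in S-RBC livers and 7.09, 7.50 and 8.29 in PHx livers (−1.72, adjusted p = 0.015). Pla2g7, the plasma form of platelet-activating factor acetylhydrolase, averaged 4.85 ± 0.18 in S-RBC livers and 6.63 ± 0.73 in PHx livers (SD, n = 3 each; −1.78, adjusted p = 0.013). Again PHx replicate 2 was the lowest PHx liver in Gpnmb and Pla2g7, but not in Fabp4, where replicate 1 was.

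Of the 21 measured genes of the recruited macrophage list, these 4 fell (Spp1, Mmp12, Gpnmb and Fabp4), beside 0.275% of all genes, and 0 rose. This list, like the others, was chosen with earlier results of these data known, so its counts are no independent support for the falls. The median was −0.37, beside 0.0039 for all genes. All 4 calls, and that of Pla2g7, were lost with only the 6 S-RBC and PHx arrays in the fit. The median was −0.66 without PHx replicate 2 and −0.18 without PHx replicate 3. The mean level of the list, which includes these 4 genes, was 6.37, 6.32 and 6.36 in S-RBC livers, against 7.20, 6.62 and 7.58 in PHx livers, so the groups did not overlap. Trem2, a receptor of the same macrophages, was dim, with 4.29, 5.58 and 5.56 in S-RBC livers and 5.29, 5.37 and 5.36 in PHx livers. Lgals3 (galectin-3) had 7.10, 7.37 and 7.59 in S-RBC livers against 8.84, 7.69 and 9.39 in PHx livers, a difference of −1.28 that missed the threshold (adjusted p = 0.145). The list was mixed: Itgax (−0.19) and Ly6c (−0.10) lay near 0. The 6 members above 0 were Arg1 (0.17), Ctsk (0.16), Ccr2 (0.12), Atp6v0d2 (0.09), Fn1 (0.07) and Chi3l1 (0.0052). In tissue RNA, fewer cells of a type and less RNA per cell cannot be told apart.

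Of 15 measured genes of Kupffer cells, the resident macrophages, 0 passed the threshold and 11 lay below 0, with a median of −0.14. Lyz2, the lysozyme of macrophages and neutrophils, had 8.54, 7.80 and 8.60 in S-RBC livers, against 10.37, 8.89 and 10.48 in PHx livers, without overlap and with PHx replicate 2 again the lowest PHx liver (−1.60, adjusted p = 0.296). C1qb, a chain of complement C1q, did not overlap either, at 7.92, 7.69 and 7.99 in S-RBC livers and 8.19, 8.06 and 8.18 in PHx livers (−0.28, adjusted p = 0.627), while Csf1r, the receptor for macrophage colony-stimulating factor, overlapped (−0.38, adjusted p = 0.501). The 4 genes above 0 were Vsig4, Slc40a1, Adgre1 and Clec4f. Clec4f, the lectin that marks rodent Kupffer cells, had 7.90, 7.80 and 8.50 in S-RBC livers and 7.72, 8.37 and 7.69 in PHx livers, and the groups overlapped. Vsig4, a complement receptor of these cells, had 9.21, 8.57 and 9.40 in S-RBC livers and 8.44, 8.56 and 8.74 in PHx livers (0.48, adjusted p = 0.381). The difference between the recruited and the resident list was not tested.

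Some genes of contractile and matrix-forming cells fell as well. Tagln (transgelin), an actin-binding protein of smooth muscle, had 4.40, 4.53 and 5.21 in S-RBC livers, against 8.01, 7.16 and 8.49 in PHx livers, with naive livers between at 6.28, 6.17 and 6.12. Its fold change was −3.17 (SE 0.449, adjusted p = 0.0059), and it stayed past the threshold whichever array was left out. Over the other settings tried its fold change ran from −4.42 to −1.95. Vim (vimentin), the intermediate filament of mesenchymal cells, had 7.50, 7.21 and 7.34 in S-RBC livers and 9.76, 8.74 and 9.75 in PHx livers (−2.07, adjusted p = 0.025). Col4a1, a chain of basement membrane collagen, had 5.77, 5.19 and 5.30 in S-RBC livers and 7.01, 6.27 and 6.98 in PHx livers (−1.33, adjusted p = 0.012). Serpinh1, the collagen chaperone of the endoplasmic reticulum, averaged 6.16 ± 0.20 in S-RBC livers and 7.58 ± 0.42 in PHx livers (SD, n = 3 each; −1.42, adjusted p = 0.021).

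Of 23 stellate cell and fibroblast genes, 2 fell (Vim and Col4a1), beside 0.275% of all genes, and 0 rose. Below 0 lay 19, with a median of −0.57. The 4 above 0 were Thy1 (0.48), Dcn (0.36), Lrat (0.28) and Pdgfra (0.25). The groups did not overlap in 8 of the 23, 6 lower and 2 higher (Thy1 and Dcn). Of all probe sets, with or without a gene symbol, 16.7% did not overlap, 6.04% lower and 10.7% higher. Vim is shared by many mesenchymal and white blood cells. The fibrillar collagens that define these cells did not pass: Col1a1 differed by −0.65 (adjusted p = 0.185), Col1a2 by −0.98 (0.247) and Col3a1 by −0.38 (0.581). The mean level of the list was 6.67, 6.20 and 6.37 in S-RBC livers and 7.16, 6.58 and 7.16 in PHx livers, with S-RBC replicate 1 above PHx replicate 2. Of 10 smooth muscle genes, Tagln fell, 9 lay below 0 and the median was −0.49, with Myh11 (0.08) the 1 above 0. Myl9, a myosin light chain, had 5.66, 5.55 and 5.52 in S-RBC livers and 6.66, 6.69 and 6.73 in PHx livers (−1.11, adjusted p = 0.056). Des (desmin) had 5.09, 5.83 and 5.50 in S-RBC livers and 7.39, 5.72 and 7.62 in PHx livers (−1.44, adjusted p = 0.062), overlapping at PHx replicate 2.

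Several of the other large falls were of the cytoskeleton and the cell surface. Flna (filamin A), which cross-links actin, averaged 5.54 ± 0.16 in S-RBC livers and 7.18 ± 0.55 in PHx livers (−1.65, adjusted p = 0.013), and Tmsb10, which binds actin monomers, averaged 6.20 ± 0.07 in S-RBC livers and 8.03 ± 0.82 in PHx livers (−1.83, adjusted p = 0.018). Tubb6, a tubulin, averaged 5.31 ± 0.51 in S-RBC livers and 6.88 ± 0.19 in PHx livers (−1.57, adjusted p = 0.012). Fxyd5, a regulator of the sodium pump, averaged 4.95 ± 0.11 in S-RBC livers and 6.32 ± 0.42 in PHx livers (−1.37, adjusted p = 0.013, all SD, n = 3 each). In all 4 genes every PHx liver was above every S-RBC liver, as the naming rule required. Named after their values were seen, the actin-binding genes Capg (−1.33, adjusted p = 0.029), Cotl1 (−1.21, 0.021) and Coro1c (−1.01, 0.018) fell too, as did the thrombin receptor F2r (−0.96, 0.013) and the endothelial protein C receptor Procr (−1.20, 0.019). Across the 50 genes that fell, the median of the group means was 5.56 in S-RBC, 6.25 in F-RBC, 5.49 in HAES, 6.0 in bleeding, 6.88 in PHx and 5.96 in naive livers. These genes were chosen for being low in S-RBC and high in PHx livers, so the order of those 2 groups was fixed by the choice.

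Plpp2, a phospholipid phosphatase of membranes, had 5.72, 5.76 and 5.60 in S-RBC livers, against 8.16, 7.30 and 7.89 in PHx livers (−2.09, SE 0.309, adjusted p = 0.0059). Naive livers had 7.34, 7.32 and 7.13, so the S-RBC livers were below both. Fis1, an adaptor of mitochondrial fission, was the gene with the smallest p. It had 6.50, 6.49 and 6.45 in S-RBC livers, against 8.45, 8.28 and 8.32 in PHx livers (−1.87, SE 0.207, adjusted p = 9.37e-04). The spread within each group was small beside this difference, and the call held whichever array was left out.

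**Figure D2:**
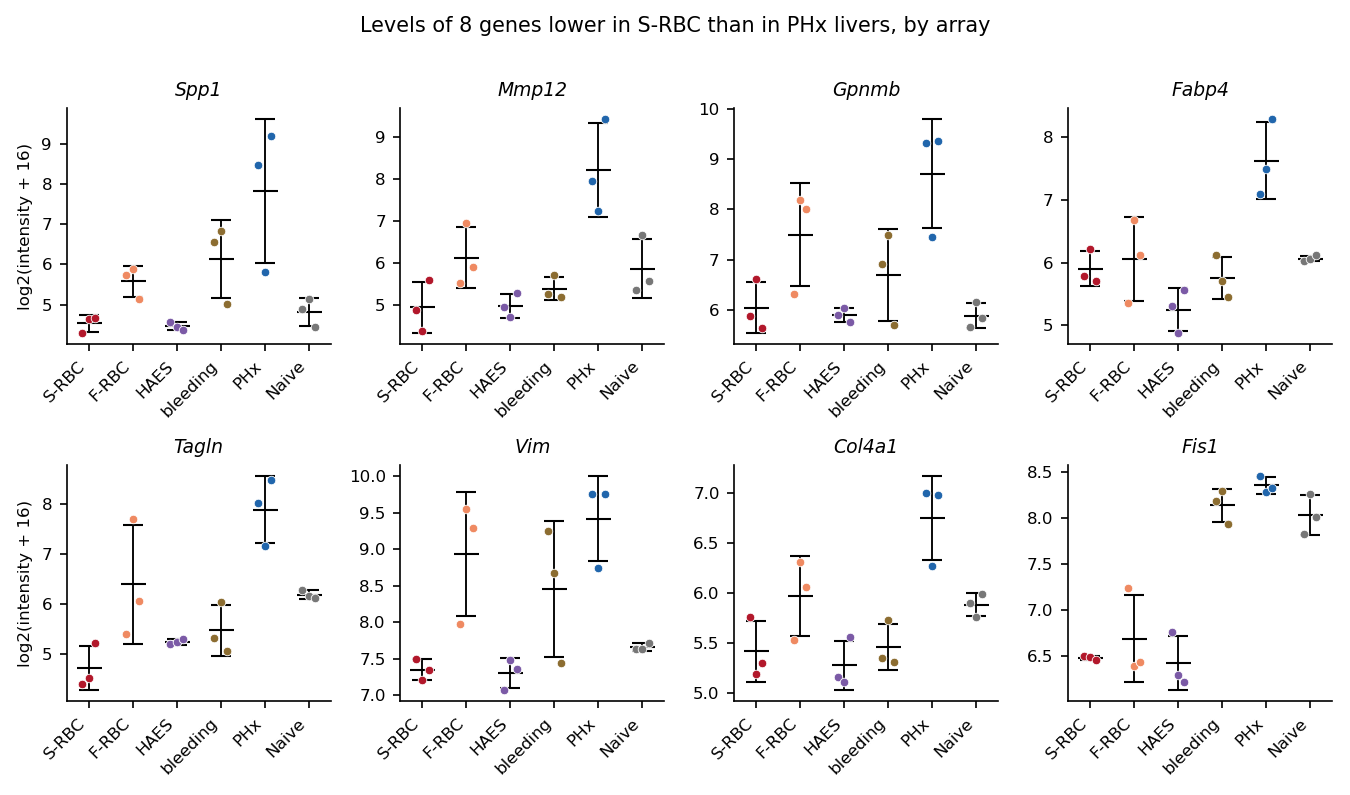
Levels of 8 genes, log2(intensity + 16), in each of the 18 arrays; coloured points are arrays, black bars the group mean with SD (n = 3). In Spp1, Mmp12, Gpnmb, Fabp4, Tagln, Vim and Col4a1 the S-RBC and HAES livers are low and the PHx livers high. PHx replicate 2 is the lowest PHx array in all but Fabp4. Bleeding livers are about as low as S-RBC livers in Fabp4 (means 5.76 and 5.91) and Col4a1 (5.46 and 5.42). Fis1 parts the S-RBC, F-RBC and HAES arrays from the other 9.

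Fis1 was 1 of 269 probe sets in which the 9 arrays of S-RBC, F-RBC and HAES rats all lay on 1 side of the 9 arrays of bleeding, PHx and naive rats. Of the 276 probe sets past the threshold, 111 were of this kind, 98 higher and 13 lower, and without them 165 were left, 93 higher and 72 lower. Among those with 1 symbol there were 10, and of the genes described here these are Fis1, Ugt2b10, Ces2e, Ppif, Dlg5l14, Dlg5l16 and Or8h7b. The 9 rats of the first 3 groups had all received a fluid. The labels give no array batch, so a batch that ran with the fluid cannot be told apart from it.

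Other cell types were checked by their markers, beside 0.193% of all genes that rose and 0.275% that fell. Of 11 hepatocyte genes, 0 passed and 10 lay above 0 (median 0.12, and 0.02 after quantile normalization). Of 15 endothelial genes, Cdh5, the cadherin of endothelial junctions, fell: it had 7.37, 7.09 and 7.29 in S-RBC livers and 8.14, 7.95 and 8.28 in PHx livers (−0.87, adjusted p = 0.046). The sinusoidal markers Lyve1 (0.04), Stab1 (0.06) and Clec4g (0.34) did not pass, and the list median was 0.04. Of 12 cholangiocyte genes, the sole fall was Spp1, which bile duct cells also make, while Krt19 differed by 0.05, Sox9 by −0.15 and Epcam by −0.63, with 0 of these past the threshold. Of 14 neutrophil genes, 0 passed and 11 lay below 0, with a median of −0.20, and Mpo stood between 4.67 and 4.86 in S-RBC livers and between 4.88 and 5.06 in PHx livers, near the dim end. Of 7 adipocyte genes, Fabp4 fell, and the defining markers Lep and Cfd differed by 0.32 and −0.20 without passing. The erythroid, platelet, B and plasma cell, T and NK cell, mesothelial, pancreatic acinar and skeletal muscle lists had 0 members past the threshold.

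The largest rise of a gene with a liver role was that of Asns, asparagine synthetase, which makes asparagine from aspartate and glutamine. It had 7.63, 7.68 and 8.15 in S-RBC livers, against 6.46, 6.11 and 5.85 in PHx livers, and the S-RBC values were above all 15 other arrays of the series. The fold change was 1.68 (SE 0.327, 95% confidence interval 0.99 to 2.37, adjusted p = 0.021). Psat1, phosphoserine aminotransferase of serine synthesis, had 7.41, 7.15 and 7.64 in S-RBC livers and 6.16, 5.60 and 5.80 in PHx livers (1.55, SE 0.293, adjusted p = 0.018). In Psat1 the HAES livers were also high, at 7.02, 6.45 and 7.25. Both calls held in 2 of 6 fits that each left out 1 array, with adjusted p up to 0.116 for Asns and 0.090 for Psat1.

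Asns and Psat1 are known targets of ATF4, the transcription factor that is translated when amino acids run short or unfolded protein accumulates, and that binds C/EBP-ATF response elements. The 250 bases before the annotated starts of both genes are shown, 5′ to 3′ on the gene's strand, because these are the 2 members of the amino acid response list that rose (RefSeq, build GRCr8, Asns at chr4:36769416-36769665 and Psat1 at chr1:222645409-222645658, both on the minus strand).
Asns: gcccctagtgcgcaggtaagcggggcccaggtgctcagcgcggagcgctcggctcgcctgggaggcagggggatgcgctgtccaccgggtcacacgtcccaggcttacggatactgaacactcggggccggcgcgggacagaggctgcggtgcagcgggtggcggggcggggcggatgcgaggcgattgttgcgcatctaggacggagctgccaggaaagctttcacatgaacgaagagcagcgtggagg
Psat1: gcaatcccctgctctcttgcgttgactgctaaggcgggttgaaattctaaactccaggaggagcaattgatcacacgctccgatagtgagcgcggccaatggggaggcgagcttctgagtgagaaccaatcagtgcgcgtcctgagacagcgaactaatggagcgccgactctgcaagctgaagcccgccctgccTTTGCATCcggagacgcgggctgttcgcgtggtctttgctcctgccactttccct
The element TGATGNAAN, searched on both strands from 250 bases before to 50 after the start, was found in neither window. It was found in 9 of the 32 list genes with a promoter (Aars1, Chac1, Fgf21, Nars1, Nupr1, Pck2, Pycr1, Slc7a1 and Trib3), beside 3.97% of 33469 promoters. The shorter GATGNAAN, which drops the first letter and was tried after the first search, was in 12.03% of promoters and in 12 of the 32, among them Psat1 on the opposite strand at −55 to −48 from the start (capitals). A match describes letters alone, and the factor's binding was not measured.

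The amino acid response list leaned the same way with few calls. Of its 35 measured genes 2 rose, beside 0.193% of all genes, and 0 fell. Above 0 lay 28, beside 50.8% of all genes, with a median of 0.34. The median stayed between 0.28 and 0.33 when each array was left out and was 0.27 after quantile normalization. The groups did not overlap in 10 of the 35, 9 of them higher, beside 16.7% of all probe sets, with or without a gene symbol, in either direction and 10.7% higher. Psph, the last enzyme of serine synthesis, had 6.45, 6.90 and 6.50 in S-RBC livers and between 5.98 and 6.03 in PHx livers (0.62, adjusted p = 0.092). Trib3 and Chac1, classical ATF4 targets, had differences of 0.58 and 0.51 (adjusted p = 0.183 and 0.188), and Ddit3, the stress factor CHOP, one of −0.11. Atf4 itself had 9.30, 8.86 and 9.41 in S-RBC livers and 8.72, 9.01 and 8.78 in PHx livers, and the groups overlapped. Outside the list, and named after its value was seen, Eprs1, the tRNA synthetase for glutamate and proline, had 10.56, 10.33 and 10.82 in S-RBC livers and 9.98, 9.71 and 9.49 in PHx livers (0.84, adjusted p = 0.019).

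Chaperones of the endoplasmic reticulum were mostly above 0. Sdf2l1, an ER protein of the chaperone complex of BiP, had 8.93, 8.02 and 8.77 in S-RBC livers, against 7.38, 7.16 and 7.43 in PHx livers (1.25, SE 0.279, adjusted p = 0.046). Naive livers were lower still, at 6.26, 6.60 and 6.67. It was the sole call among 24 genes, beside 0.193% of all genes that rose. Of the 24, 23 lay above 0, beside 50.8% of all genes, with a median of 0.25. Pdia4, a protein disulfide isomerase, differed by 0.59 (adjusted p = 0.154), Sec61b, of the translocation channel, by 0.37 (0.191) and Hspa5 (BiP) by 0.28 (0.473). The median was 0.16 when S-RBC replicate 1 was left out, 0.40 when replicate 2 was, and 0.17 after quantile normalization.

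The transporters Abcg2 and Slc13a3 were among the other named rises. Abcg2, an efflux pump that carries porphyrins, urate and many drugs, had 8.13, 7.85 and 8.02 in S-RBC livers, against 6.53, 5.88 and 6.95 in PHx livers (1.55, SE 0.292, adjusted p = 0.018). Slc13a3, a sodium-dependent carrier of dicarboxylates, had 7.94, 7.78 and 7.47 in S-RBC livers, against 6.54, 6.30 and 6.48 in PHx livers (1.29, SE 0.208, adjusted p = 0.0081). It is the one named rise that stayed past the threshold in each of the 6 fits without 1 array. The bleeding livers had 7.26, 7.33 and 7.26, also above the PHx livers, and the naive livers 6.07, 6.42 and 6.59. Abcg2 and Slc13a3 were the 2 calls among 23 transporter genes, beside 0.193% of all genes that rose. The list median was 0.19, or 0.09 without S-RBC replicate 1 and 0.10 after quantile normalization. Abcb1b, a drug efflux pump of regenerating liver, had 5.63, 5.88 and 5.35 in S-RBC livers and 7.76, 6.08 and 7.67 in PHx livers, a difference of −1.55 that missed the threshold (adjusted p = 0.122).

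Ugt2b10, a glucuronosyltransferase, had 9.91, 9.65 and 9.79 in S-RBC livers, against 8.52, 8.58 and 8.70 in PHx livers (1.18, adjusted p = 0.012). Ces2e, a carboxylesterase, had 8.53, 8.20 and 8.20 in S-RBC livers and 7.11, 7.23 and 6.98 in PHx livers (1.20, adjusted p = 0.046). Both belong to families of close copies, whose probes may share signal. Hao2, a peroxisomal hydroxyacid oxidase, had 9.90, 9.95 and 9.87 in S-RBC livers, against 9.03, 8.62 and 9.02 in PHx livers (1.02, adjusted p = 0.030), with naive livers the highest at 9.88, 10.40 and 10.40. Msrb1, a selenoprotein that repairs oxidised methionine, had 9.35, 9.62 and 9.47 in S-RBC livers and 8.34, 8.47 and 8.44 in PHx livers (1.06, adjusted p = 0.029). Eef1b2, a subunit of the translation elongation factor, had 6.59, 6.49 and 6.90 in S-RBC livers and 5.28, 5.65 and 5.91 in PHx livers (1.05, adjusted p = 0.018). In these 3 genes the groups did not overlap, as the naming rule required. Lin7a, a scaffold protein of cell polarity, averaged 8.47 ± 0.37 in S-RBC livers and 7.12 ± 0.15 in PHx livers (SD, n = 3 each; 1.35, adjusted p = 0.029). Named after their values were seen, Ppif (cyclophilin D of the mitochondrial matrix, 0.95, adjusted p = 0.018) and Apoc4 (an apolipoprotein, 0.88, 0.040) rose as well.

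**Figure D3:**
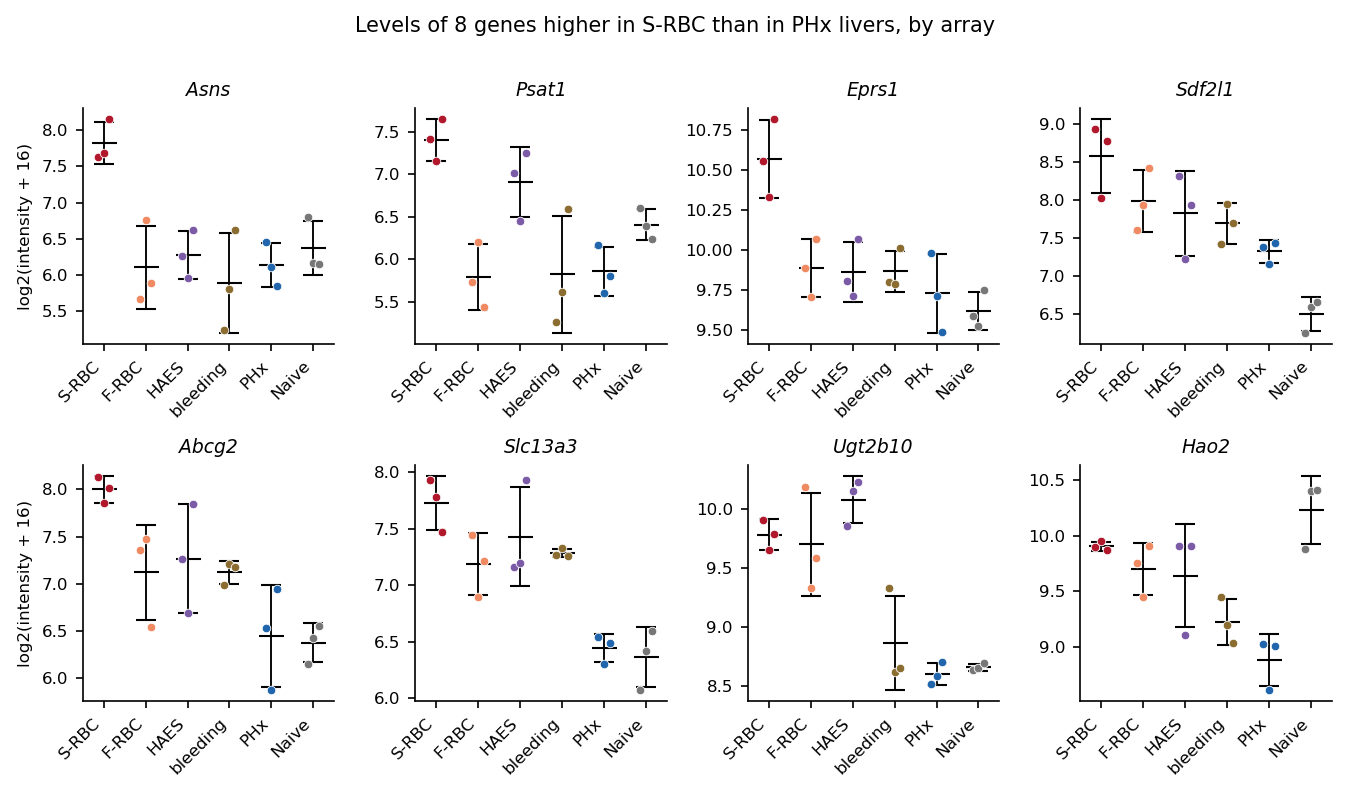
Levels of 8 genes, log2(intensity + 16), in each of the 18 arrays, with points for arrays and black bars for the group mean with SD (n = 3). The S-RBC livers are above all other arrays in Asns and Eprs1, at the level of the F-RBC and HAES livers in Ugt2b10, and below most of the naive livers in Hao2.

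The remaining named rises were dim. Dlg5l16, Dlg5l14 and Ubbl1 stood between 5.11 and 5.92 in S-RBC livers and between 4.0 and 4.53 in PHx livers, with fold changes of 1.25, 1.12 and 1.16 (adjusted p = 0.022, 0.041 and 0.010). Over the other settings tried, Dlg5l16 ran from 0.50 to 3.02, Dlg5l14 from 0.43 to 2.83 and Ubbl1 from 0.41 to 3.66. For Asns the range was 1.21 to 1.93. The values of Dlg5l16 are those of a probe set that is not its brightest, which differed by 0.72 (adjusted p = 0.083), so it is not among the 35 genes that rose. The first pair are like-named copies, so their probe sets may read the same transcripts. The olfactory receptor Or8h7b, of a family left out by the naming rule, had the largest rise with a symbol, averaging 8.35 ± 0.50 in S-RBC livers and 5.13 ± 0.40 in PHx livers (SD, n = 3 each; 3.22, adjusted p = 0.040). HAES livers averaged 9.15.

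The array also carries probe sets for microRNA genes, and 2 of them, named after their values were seen, passed the threshold. Mir598 had 6.87, 6.60 and 6.90 in S-RBC livers, against 5.93, 5.84 and 6.13 in PHx livers (0.83, adjusted p = 0.017). Mir152 had 4.33, 4.72 and 4.69 in S-RBC livers, against 5.08, 5.17 and 5.28 in PHx livers (−0.60, adjusted p = 0.041). Each call held in 1 of the 6 fits without an array. The mature sequences of the gene that fell are shown with their seeds, bases 2 to 8, in capitals (RefSeq, build GRCr8, plus strand, at chr10:82329397-82329419 for the 5p and chr10:82329435-82329455 for the 3p arm).
rno-miR-152-5p: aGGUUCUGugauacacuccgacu
rno-miR-152-3p: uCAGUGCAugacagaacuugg
Total RNA was labelled, and the probe set does not say which arm or whether the primary transcript was read.

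Among the genes of the replication, mitosis and G1 control lists, 1 passed the threshold. Mcm2, a subunit of the helicase that unwinds DNA for replication, had 4.69, 5.08 and 4.87 in S-RBC livers, against 5.67, 5.45 and 5.83 in PHx livers (−0.77, SE 0.166, adjusted p = 0.037), and naive livers had 4.42, 4.94 and 4.62. It was the sole member past the threshold among 32 replication genes, beside 0.275% of all genes that fell. Of the 32, 23 lay below 0 with a median of −0.09, which was −0.22 without PHx replicate 2 and turned to 0.0060 without S-RBC replicate 3. Mcm6 differed by −0.87 (adjusted p = 0.107), Mcm5 by −0.71 (0.127) and Lig1, the replicative DNA ligase, by −0.66 (0.064). The groups did not overlap in 9 of the 32, all 9 lower, beside 16.7% of all probe sets in either direction and 6.04% lower. These shares also count probe sets with no gene symbol, so they are not shares of genes. The Mcm2 call held without S-RBC replicate 2 and without PHx replicate 2 and was lost without each of the other 4 arrays, with adjusted p up to 0.177. Outside these lists, and named after their values were seen, the cyclin-dependent kinase Cdk14 (−0.85, adjusted p = 0.047) and the deoxycytidylate deaminase Dctd (−1.34, 0.012) fell too.

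Of 32 mitosis genes 0 passed and 28 lay below 0, with a median of −0.18 that was −0.31 without PHx replicate 2 and −0.04 without S-RBC replicate 3. Plk1, a kinase of mitotic entry, had 5.17, 6.25 and 6.09 in S-RBC livers and 6.92, 6.26 and 6.73 in PHx livers (−0.80, adjusted p = 0.197), and Prc1, of the central spindle, differed by −0.58 (0.202). Of 20 G1 control genes 0 passed and 17 lay below 0 (median −0.22). Ccnd1, the cyclin that drives G1, had 5.20, 5.77 and 5.21 in S-RBC livers, against 6.84, 6.10 and 6.76 in PHx livers and 6.07, 6.42 and 6.81 in naive livers (−1.17, 95% confidence interval −1.76 to −0.59, adjusted p = 0.063). Myc had 5.99, 5.71 and 5.75 in S-RBC livers and 6.19, 7.34 and 5.98 in PHx livers, where PHx replicate 2 stood apart (−0.68, adjusted p = 0.260).

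Among 24 growth factor genes 0 passed. Hgf, the hepatocyte growth factor made by stellate and endothelial cells, had 8.69, 8.46 and 8.92 in S-RBC livers and 7.26, 8.27 and 7.83 in PHx livers, with each S-RBC liver above each PHx liver. Its difference from PHx, 0.90 with an interval of 0.43 to 1.37, missed the threshold (adjusted p = 0.073), while its differences from bleeding (0.94, adjusted p = 0.038) and from F-RBC (1.27, 0.028) passed. Tgfb1, an inhibitor of hepatocyte growth, had 5.51, 5.70 and 5.23 in S-RBC livers and 5.85, 6.04 and 6.68 in PHx livers (−0.71, interval −1.23 to −0.19, adjusted p = 0.199). Tgfb3 (−0.61, 0.114) and the EGF receptor ligand Btc (−0.50, 0.127) did not pass.

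Hmox1, the inducible heme oxygenase, gave no difference past the threshold. It had 7.92, 7.05 and 7.71 in S-RBC livers and 7.45, 9.01 and 8.04 in PHx livers, and the groups overlapped (−0.61, 95% confidence interval −1.44 to 0.22, adjusted p = 0.516). The F-RBC livers had 6.07, 6.78 and 6.48, the HAES livers 5.73, 6.26 and 5.92 and the bleeding livers 8.28, 7.83 and 7.15. Its differences from F-RBC (1.11, adjusted p = 0.148) and HAES (1.59, 0.162) did not pass. Cd163, the hemoglobin scavenger receptor, had 6.99, 7.37 and 7.15 in S-RBC livers and 7.43, 7.18 and 7.47 in PHx livers (−0.19, 0.753). Of 22 heme and iron genes Abcg2 rose, beside 0.193% of all genes, and the median was 0.0045. The iron hormone Hamp ranged from 9.31 to 12.62 in S-RBC livers and from 11.80 to 12.43 in PHx livers, the widest S-RBC spread of the genes described (SD 1.68 in S-RBC, 0.34 in PHx livers; −1.24, adjusted p = 0.396).

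No cytokine gene of the study text passed the threshold. Il6 had 4.64, 4.75 and 4.69 in S-RBC livers and 4.83, 4.77 and 4.81 in PHx livers, below the array medians. Tnf differed by 0.10 (interval −0.27 to 0.47), Il10 by −0.05 (−0.37 to 0.27) and Il1b by −0.43 (−1.12 to 0.27); their groups overlapped. Icam1, the leukocyte adhesion molecule, had 6.59, 6.64 and 7.10 in S-RBC livers and 7.08, 6.41 and 6.64 in PHx livers (0.07, interval −0.42 to 0.56, adjusted p = 0.928). Cd68, of macrophage lysosomes, had 7.12, 6.95 and 7.00 in S-RBC livers and 7.47, 6.90 and 7.73 in PHx livers (−0.34, 0.599). Arg1, the arginase of the urea cycle, differed by 0.17 (0.603). Of 27 genes of IL-6, IL-1 and TNF signalling 0 passed (median −0.05), and of 25 chemokine genes 0 passed with 19 below 0 (median −0.19). Ccr1, a receptor of monocytes and neutrophils, had 4.63, 4.87 and 4.46 in S-RBC livers and 5.74, 5.31 and 6.44 in PHx livers (−1.17, 0.093).

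**Figure D4:**
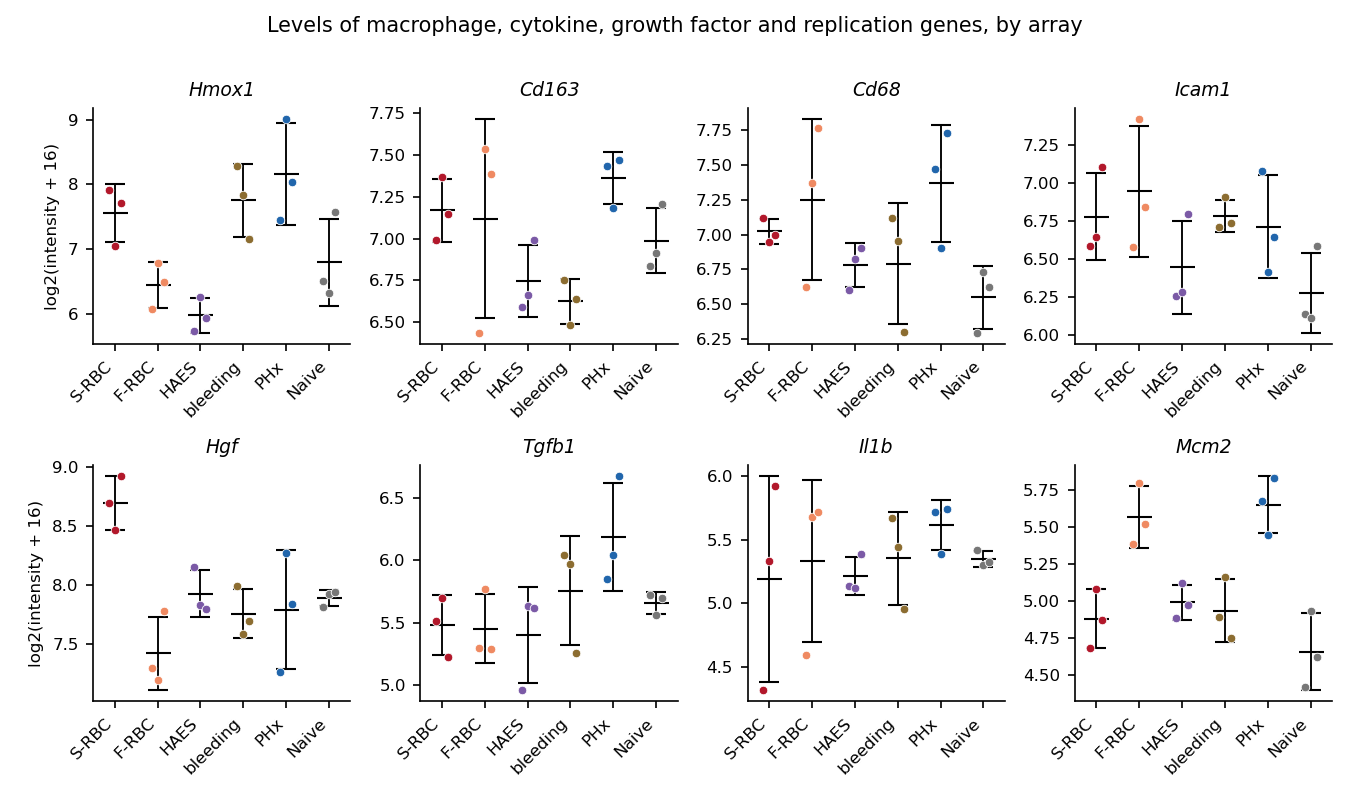
Levels of 8 genes, log2(intensity + 16), in each of the 18 arrays, with points for arrays and black bars for the group mean with SD (n = 3). Hgf is higher in each S-RBC liver than in each PHx liver, Hmox1 overlaps between S-RBC, bleeding and PHx livers, and Mcm2 is high in F-RBC and PHx livers.

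In metabolism, no list had a member past the threshold outside those named. Of 18 cholesterol synthesis genes 13 lay above 0 (median 0.21), but the median turned to −0.03 without S-RBC replicate 1 and to −0.02 without PHx replicate 2. Of 17 genes of fatty acid synthesis 11 lay below 0, with a median of −0.19 that was −0.49 when S-RBC replicate 1 was left out and turned to 0.06 when replicate 3 was. Of 20 genes of fatty acid oxidation 15 lay above 0, with a median of 0.23 that was 0.13 when S-RBC replicate 2 was left out and 0.42 when replicate 3 was, and with Hadhb, of mitochondrial beta-oxidation, at 9.67, 9.86 and 9.54 in S-RBC livers and 8.99, 8.93 and 9.21 in PHx livers (0.65, adjusted p = 0.070). Of 26 genes of the cytochrome P450 list, which also holds the reductase Por and the nuclear receptors Nr1i2 and Nr1i3, 17 lay above 0 (median 0.20, and 0.10 without PHx replicate 1). Cyp2b2, a phenobarbital-inducible enzyme, had 10.32, 10.95 and 10.57 in S-RBC livers and 8.20, 10.00 and 9.60 in PHx livers (1.35, 0.120), with naive livers at 7.51, 7.84 and 8.72. Among urea cycle genes Ass1, argininosuccinate synthase, had 9.94, 9.69 and 9.45 in S-RBC livers and 10.25, 10.24 and 10.14 in PHx livers (−0.52, 0.156). Acute phase genes had a median of 0.08, which became −0.0042 after quantile normalization, and the NRF2 (0.01), hypoxia (0.02), glucocorticoid (0.08), circadian clock (0.01) and coagulation (0.08) lists lay near 0. Bile acid synthesis had a median of 0.19, negative acute phase proteins 0.11, urea cycle −0.02, growth factor signals −0.04, interferon-stimulated genes −0.09 and gluconeogenesis with glycolysis −0.15, all with 0 members past the threshold. After quantile normalization the medians were 0.16 for fatty acid oxidation, 0.14 for cholesterol synthesis, 0.13 for bile acid synthesis and 0.11 for cytochrome P450 genes.

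**Figure D5:**
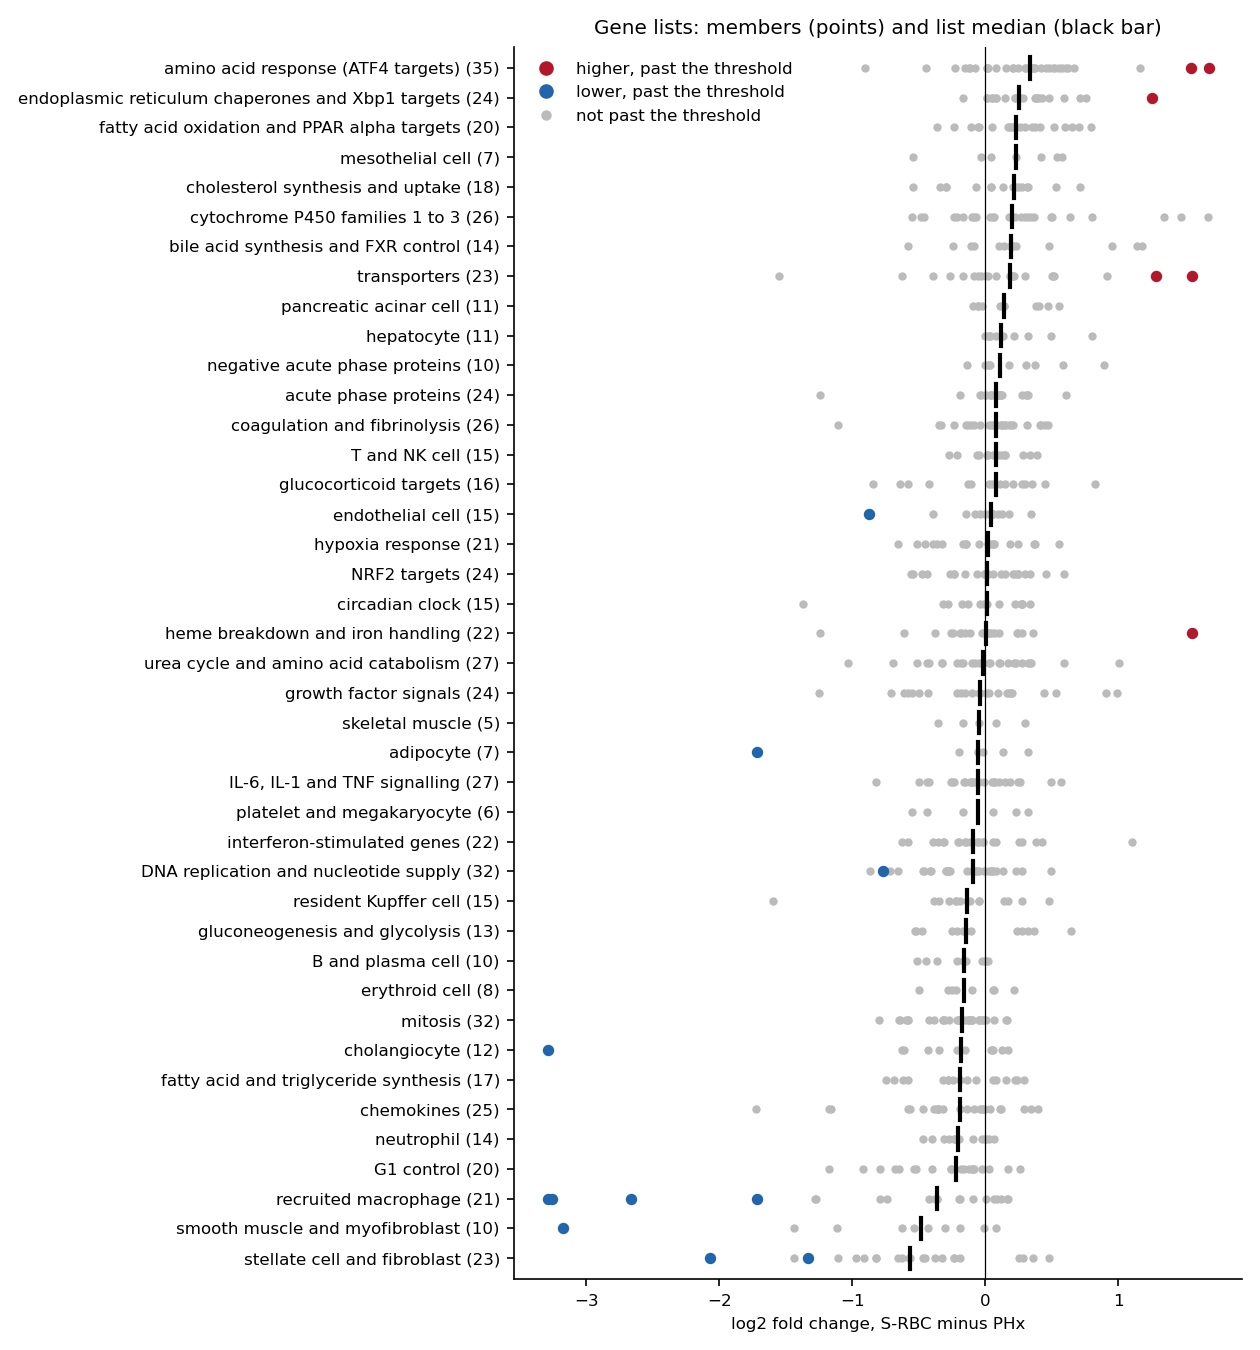
Members of the pathway and marker gene lists (points, measured number in brackets) by log2 fold change, S-RBC minus PHx, with the list median as a black bar; red and blue points passed an adjusted p of 0.05. The medians run from −0.57 (stellate cell and fibroblast) to 0.34 (amino acid response), and most members lie between −1 and 1.

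The S-RBC livers were also set against the other bled groups in the same fit, which shares the S-RBC arrays with the main comparison. Against bleeding without fluid 2.08% of genes passed (378), against F-RBC 0.512% (93) and against HAES 0%, that is 0 of 18166 in limma, with 1893 genes at an unadjusted p under 0.05. Of all probe sets, 2 passed against HAES. Of the 28 genes named for the largest changes, Asns and Psat1 passed against F-RBC (1.72 and 1.61, adjusted p = 0.033 and 0.030). Against bleeding, 7 rises and 2 falls passed, Eef1b2 at 1.26 (0.0044) and Fis1 at −1.65 (0.0031) among them. None of the 28 passed against HAES, where Spp1 differed by 0.07, Vim by 0.05 and Asns by 1.54 (adjusted p = 0.138). Outside the bled groups, S-RBC against naive livers had 3.13% of genes past the threshold. Of the 28, 12 rises and 2 falls (Plpp2 and Fis1) passed there.

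The calls rest on few arrays. With only the 6 S-RBC and PHx arrays in the fit, 15 of the 85 genes stayed past the threshold. Flna, Tmsb10, Tubb6, Fxyd5 and Serpinh1 were among those that did not. In the methods' t-test after Benjamini-Hochberg 0 of the 85 passed. Each fit without 1 array kept between 7 and 52 of the 85 genes past the threshold, with all 85 in their direction. Fis1, Mmp12, Plpp2, Slc13a3 and Tagln passed in all 6 such fits and Ubbl1 in 5, while Spp1, Sdf2l1 and Lin7a passed in 1 and Asns in 2. Of the 85 genes, 16 passed in 0 of the 6, among them Ces2e, Msrb1, Hao2, Apoc4, Cdh5 and Or8h7b. Without S-RBC replicate 1, the array that stood apart, 67 probe sets were past the threshold and 9 of the 85 genes were kept, and without PHx replicate 3 the numbers were 47 and 7. Of the 41 gene list medians, 17 turned sign in at least 1 such fit, 19 kept their sign but moved by more than 1.5 times, and 5 moved by less (amino acid response, G1 control, Kupffer cell, smooth muscle and stellate cell).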

How the data were processed

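Total RNA of frozen liver was labelled and read on Rat Gene 2.0 ST chips (Affymetrix), each chip holding 1 rat, with groups of 3. The deposited table holds linear intensities of 36685 probe sets on 18 arrays. In the authors' notes the tools are PLIER and Affymetrix Power Tools, whereas their methods give RMA beside PLIER, and which of these made the deposited intensities is not given in the sources used here. An offset of 16 was added before taking log2. limma 3.58.1 in R 4.3.3 was fitted with 1 mean per group over all 18 arrays (12 residual degrees of freedom, trended and robust prior, median prior 5.48), with the Benjamini-Hochberg adjustment taken across the whole table and a threshold of 0.05. Where the text prints an adjusted p it comes from this fit. Python 3.11.15 with pandas 2.3.3 and matplotlib 3.10.9 handled tables and figures. The step was tested on simulated data.

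Of the probe sets, 18511 carry 1 symbol, 575 several and 17599 none, and 18394 matched the current RefSeq gene table. In counts and lists each gene is its brightest probe set, while large changes were named by probe set, which for Dlg5l16 is not its brightest. Genes were named by rule: the 14 largest changes each way among called probe sets with non-overlapping groups, leaving out predicted genes and large families, up to 3 members of smallest p of each list, genes the study discusses, and defining markers. The comparison, lists and rule were chosen with earlier results of these data known. 1 gene of the lists is not reported here. Other settings tried were offsets of 1 and 64, median centring, quantile normalization, a dim filter, subsets of arrays, array weights, a replicate block, the methods' t-test and leaving out each array. Arrays give no read depth, so their number limits the precision.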

Additional observations from a re-analysis of the deposited data

Results flagged for a closer look

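Of the genes with the largest changes between S-RBC and PHx livers, some also differed between S-RBC livers and those of another bled group, tested as a contrast of the same limma fit. Against bleeding without fluid, Asns was higher by 1.93 on the log2 scale (adjusted p = 0.0075), Psat1 by 1.58 (0.012), Eef1b2 by 1.26 (0.0044) and Msrb1 by 1.03 (0.026), and each was higher in all 3 S-RBC livers than in all 3 bleeding livers. Dlg5l16 (0.98, adjusted p = 0.050), Ugt2b10 (0.92, 0.031) and Ubbl1 (0.81, 0.039) were higher by less, with Dlg5l16 just under the threshold. Plpp2 (−1.45, 0.026) and Fis1 (−1.65, 0.0031) were lower in S-RBC than in bleeding livers. Against F-RBC, Asns (1.72, adjusted p = 0.033) and Psat1 (1.61, 0.030) were higher, with each S-RBC liver above each F-RBC liver. These contrasts share the S-RBC arrays with the comparison that chose the genes, and are no independent support for it.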

How the results depend on the processing

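The 276 calls became 118 (99 higher, 19 lower) with only the 6 S-RBC and PHx arrays in the fit, 440 (293 and 147) with array weights, 165 (93 higher) without the probe sets that part the 9 fluid arrays, a count added after seeing the data, and 0 (0 and 0) in the methods' t-test after Benjamini-Hochberg, where 3418 had an unadjusted p under 0.05. Only brighter probe sets gave 117 higher, quantile normalization 162 and median centring 161 lower, and the fit without HAES and bleeding arrays 50 lower. Leaving out 1 array gave 47 (without PHx replicate 3) to 317 (without S-RBC replicate 2) calls, 38 to 226 higher and 9 to 132 lower, with 67 without S-RBC replicate 1, 93 without PHx replicate 1 and 137 without S-RBC replicate 3. The 466 probe sets over 2-fold became 3477 with an offset of 1 and 104 with one of 64. The labels do not say whether replicate numbers pair rats across groups. Deviations from the group mean of same-numbered arrays gave 45 correlations of −0.25 to 0.29, 4 over 0.1, which cannot settle it. A fit with the replicate block gave 218 calls, without Lin7a, Sdf2l1, Ces2e, Spp1, Gpnmb and Vim. For the named genes and those of the study text, 491 of 658 values kept direction and side, 159 lost the call, 1 gained it and 7 turned. Those that turned were uncalled throughout: Tnf (−0.13 with array weights, −0.13 to 0.29 when arrays were left out), Icam1 (−0.10 to 0.25), Il1b (−0.79 to 0.0098) and Il10 (−0.12 to 0.090). The cause of these shifts was not tested. Dim genes, near the array median, are limited by the offset.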
